A study of Mus musculus with 12 samples.

Results

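Neat1, Malat1, Gas5, Meg3, Rian, Mirg and H19 are long noncoding RNAs of the mouse, that is, long transcripts with no known protein product. They were picked by gene symbol and are 7 of the 54839 features whose counts were deposited for this study. The choice was made from results of these same libraries: Neat1 was chosen by its change under CCl4, which went up in one cell fraction and down in the other, so that its values are given as a description with no test. The libraries are bulk RNA-seq of hepatocytes from male heterozygous p16-Tom mice of the C57BL/6 strain, which carry a tamoxifen-dependent Cre recombinase under the control of p16Ink4a together with a Cre-activated tdTomato reporter at the Rosa26 locus, so that cells with active p16Ink4a at the time of tamoxifen turn red. All mice received tamoxifen, and they were given either repeated injections of CCl4, a solvent that injures hepatocytes and leads to fibrosis, or corn oil. Red (Tom+) and unlabelled (Tom-) live cells were sorted from the livers, which gave 4 groups of 3 libraries: Tom- oil, Tom+ oil, Tom- CCl4 and Tom+ CCl4. The label marks past p16Ink4a promoter activity and not the p16Ink4a level at the time of the sort, and the ages of the mice are not given in the sources used here.

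Neat1 is the RNA on which paraspeckles, bodies of the cell nucleus that hold RNA-binding proteins, are built, and Malat1, its neighbour on chromosome 19, is kept in nuclear speckles, where splicing factors gather. Gas5 carries small nucleolar RNAs in its introns and its own spliced RNA accumulates in resting cells. Meg3, Rian and Mirg lie in one imprinted domain of chromosome 12, where the maternal chromosome gives these noncoding RNAs and the paternal one gives the protein-coding genes Dlk1 and Rtl1. H19 is the maternally expressed partner of Igf2 on chromosome 7, abundant in fetal liver and silenced after birth.

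The positions in the deposited table were those of the GENCODE M21 annotation of mm10 for all 7 genes. Neat1 (ENSMUSG00000092274) is at chr19:5824708-5845478 on the minus strand, a single exonic block of 20771 bases, and Malat1 (ENSMUSG00000092341) is at chr19:5795690-5802672 on the same strand. Meg3 (ENSMUSG00000021268) is at chr12:109541001-109571726, Rian (ENSMUSG00000097451) at chr12:109603940-109661716 and Mirg (ENSMUSG00000097391) at chr12:109729764-109749460, all on the plus strand. H19 (ENSMUSG00000000031) is at chr7:142575529-142578143 on the minus strand, and Gas5 (ENSMUSG00000053332) at chr1:161034422-161038539 on the plus strand. Every one of the 7 overlaps other annotated features, from 3 for Neat1, Malat1 and H19 to 19 for Rian, and 6 of the 7 have counts that are not whole numbers in at least 5 of the 12 libraries, the kind of value that results when reads are divided between features.

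Sequences are shown for the parts of these genes that the results below turn on, from RefSeq (GRCm38.p6) and GENCODE M21 (GRCm38), builds with the coordinates of mm10. The annotation gives Neat1 a long form of 20771 bases and a short form of 3004 bases from the 5′ part of the gene, of which the last 60 bases, at chr19:5842307-5842366 on the minus strand, are shown with the polyadenylation hexamer AATAAA in capitals, followed by 14 further bases.
Neat1 short form, 3′ end: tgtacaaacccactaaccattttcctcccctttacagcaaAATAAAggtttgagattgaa

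The promoter windows of Meg3, one of the RNAs with the largest rise, and of Gas5, whose level hardly moved, are shown for comparison, each with 250 bases before and 50 after an annotated start. Gas5 and Meg3 each have 2 such windows in RefSeq, and the one of each that holds the most of the motifs below is shown. Capitals mark 4 motifs searched on both strands: the TATA box TATAAA, the GC box GGGCGG, the full cAMP response element TGACGTCA and the CCAAT box CCAAT. The Meg3 window is chr12:109540746-109541045 on the plus strand, and the Gas5 window is chr1:161034916-161035215 on the plus strand.
Meg3: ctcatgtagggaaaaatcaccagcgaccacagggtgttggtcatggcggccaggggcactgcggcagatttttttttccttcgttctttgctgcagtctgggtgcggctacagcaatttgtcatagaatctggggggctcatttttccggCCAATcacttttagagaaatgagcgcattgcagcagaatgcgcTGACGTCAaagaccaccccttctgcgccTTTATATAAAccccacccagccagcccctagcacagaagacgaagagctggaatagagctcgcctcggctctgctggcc
Gas5: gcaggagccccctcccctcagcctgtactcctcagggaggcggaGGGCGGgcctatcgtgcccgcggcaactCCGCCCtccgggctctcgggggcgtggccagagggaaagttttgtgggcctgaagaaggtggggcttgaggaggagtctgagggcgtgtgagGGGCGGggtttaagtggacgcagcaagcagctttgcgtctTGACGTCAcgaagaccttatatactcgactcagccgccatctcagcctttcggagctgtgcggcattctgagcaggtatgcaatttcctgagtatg

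Both windows hold TGACGTCA, which starts 57 bases before the start in Meg3 and 46 bases before it in Gas5, and which 588 of 32851 promoter windows of this length (1.79%) hold. Meg3 also has TATAAA, present in 13.6% of the windows and matched there on each strand in overlapping letters, and CCAAT, present in 37.4%. The Gas5 window shown has GGGCGG at 3 places, a motif present in 35.7% of the windows, and the other Gas5 window has it at 5 places and no TGACGTCA. The windows of the Rian and Malat1 starts hold none of the 4 motifs. A match describes the letters only.

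The chromosome 12 RNAs also carry microRNAs within their span. RefSeq places 3 mature microRNAs in Meg3, 6 in Rian, 26 in Mirg and 2 in H19, and a few of them are shown with the seed (bases 2 to 8, which pair with targets) in capitals. miR-453 and miR-496a-5p of Mirg share the seed GGUUGCC, the one seed found more than once among them.
mmu-miR-770-5p, in Meg3: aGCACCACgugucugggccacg
mmu-miR-370-3p, in Rian: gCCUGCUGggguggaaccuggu
mmu-miR-453, in Mirg: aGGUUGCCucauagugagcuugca
mmu-miR-496a-5p, in Mirg: aGGUUGCCcaugguguguuca
mmu-miR-410-3p, in Mirg: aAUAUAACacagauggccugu
mmu-miR-675-5p, in H19: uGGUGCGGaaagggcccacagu

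The libraries were made from polyA RNA and do not measure mature microRNAs.

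The 12 libraries held 37568669 to 75331523 counts each. Levels are given as CPM, counts scaled to a common library total after TMM normalization, and 3 counts correspond to 0.0369 to 0.0829 CPM. The tdTomato reporter was at 1225 to 1794 CPM in the Tom+ libraries and in Tom- oil replicate 1, and at 120 to 263 CPM in the Tom- libraries and in Tom+ oil replicate 2. The libraries labelled Tom- oil replicate 1 and Tom+ oil replicate 2 thus went against their labels, and results that rest on them are also given without both of these doubtful oil libraries. Alb, the serum albumin made by hepatocytes, was at a mean of 85612 to 114685 CPM in the 4 groups. Of 5 hepatocyte markers 1 was called lower with CCl4 in Tom+ hepatocytes, beside 2.34% of all genes tested, and none in the other contrasts. Markers of other liver cells were present at low levels. The summed level of 8 markers of stellate cells, the fibroblasts of the liver, was 7.13 to 21.99 CPM in the oil libraries and 47.5 to 94.5 CPM in the CCl4 libraries, and each of the 8 was detected in every group. The sum of 8 liver endothelial markers was 282 to 305 CPM in Tom- CCl4 and 111 to 206 CPM in the other 3 groups. The sum of 8 macrophage markers ranged from 17.1 to 133 CPM in oil and from 55.3 to 148 CPM in CCl4. The 5 lymphocyte markers summed to at most 0.305 CPM and the 5 bile duct markers to at most 5.79 CPM. In bulk libraries a change in the number of cells of a type and a change in RNA per cell cannot be told apart.

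Compared per length, as TPM, which divides the counts by each gene's exonic length, Malat1 had the highest mean level of the 7 in every group, from 34.3 ± 7.52 TPM in Tom+ CCl4 to 52.6 ± 7.95 TPM in Tom+ oil (SD, n = 3). Gas5 followed with 15.5 to 17.7 TPM. Neat1 had 7.40 ± 1.90 TPM in Tom- oil and 6.17 ± 0.555 TPM in Tom+ CCl4, below Gas5 by more than the spread. It had 14.9 ± 7.47 TPM in Tom+ oil and 20.2 ± 5.49 TPM in Tom- CCl4, where the difference from Gas5 was within the spread. Meg3 and Rian had at most 0.628 TPM in any oil library. In Tom+ CCl4 they reached 5.85 ± 2.37 and 5.30 ± 1.78 TPM, which put Neat1, Meg3 and Rian at levels not separated beyond their spread. Mirg did not exceed 1.10 TPM and H19 did not exceed 0.378 TPM in any library. The length of Neat1 counts the long form, so that a library rich in the short form has a lower TPM than molecules per cell would give.

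**Figure D1:**
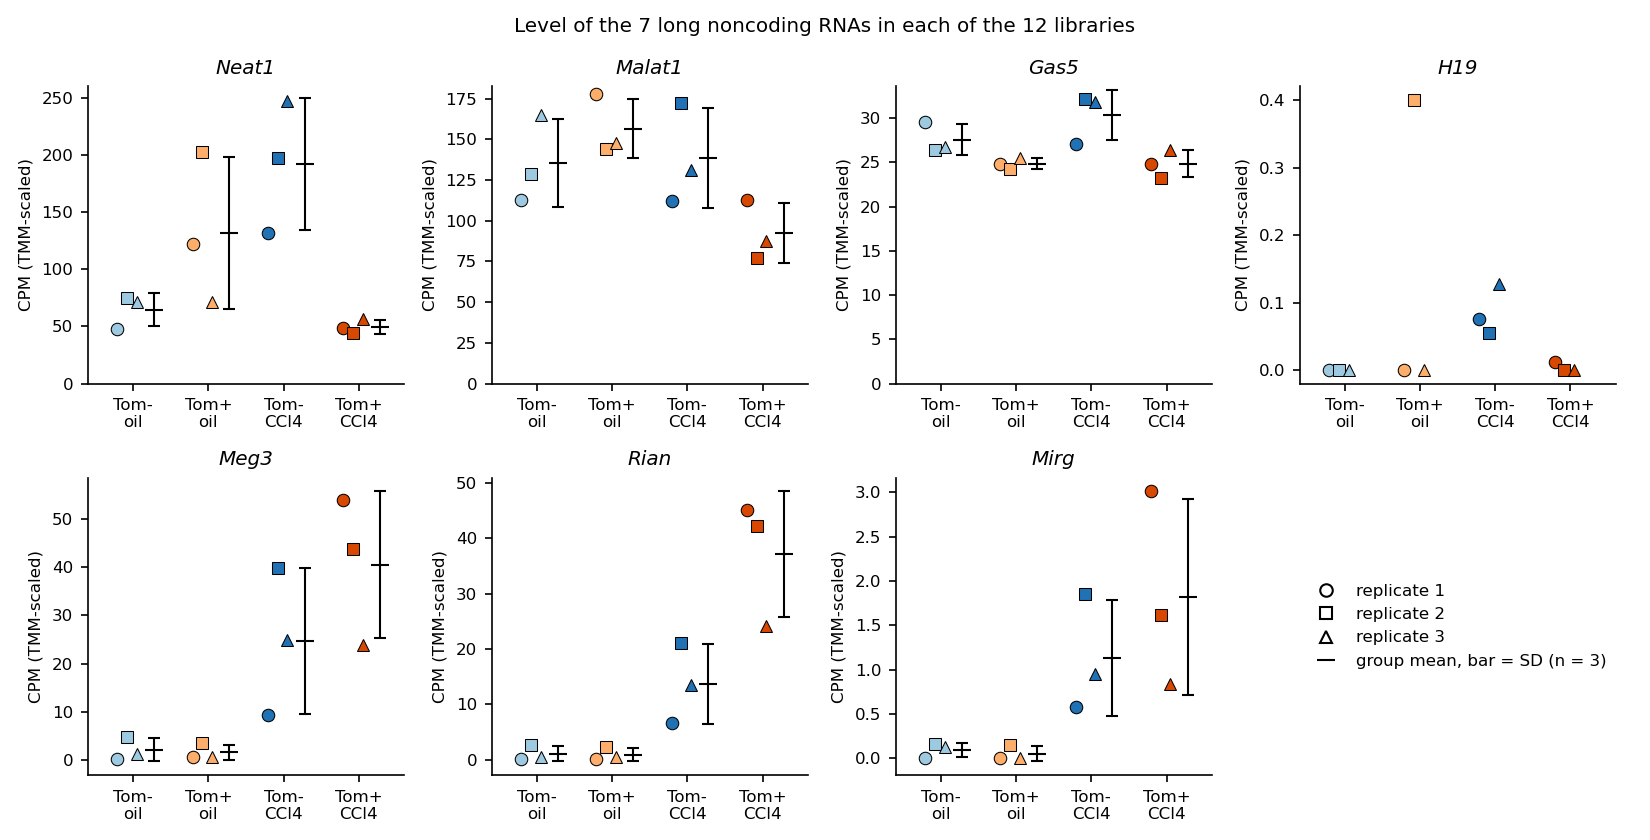
Level of the 7 long noncoding RNAs as TMM-scaled CPM (vertical axes, each with its own scale) in the 12 libraries, by group; symbols mark replicates and the horizontal line with its bar the mean ± SD of 3 libraries, left out for H19 because most of its libraries are at 0. Neat1 is high in Tom- CCl4 (132 to 247 CPM) and low in Tom+ CCl4 (44.0 to 56.1 CPM), and Meg3, Rian and Mirg are near 0 in oil and higher in every CCl4 library.

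Taken in the order of the replicates, the Tom- oil libraries had 47.9, 74.8 and 71.5 CPM of Neat1, and the Tom+ oil libraries 122, 203 and 71.0 CPM. In CCl4 it was at 132, 198 and 247 CPM in Tom- and at 49.0, 44.0 and 56.1 CPM in Tom+ hepatocytes. By label, every Tom- CCl4 library was above every Tom- oil library, and every Tom+ CCl4 library was below every Tom+ oil library. The Tom- and Tom+ oil libraries overlapped. Placed by reporter level instead, Tom+ oil replicate 2 (203 CPM) lies within the Tom- CCl4 range. Tom- oil replicate 1 (47.9 CPM) then lies within the Tom+ CCl4 range, so that neither separation holds. The group means differed 2.97-fold between CCl4 and oil in Tom- hepatocytes, and the Tom+ oil mean was 2.66-fold that of Tom+ CCl4. Fitted by edgeR, the log2 fold change of CCl4 against oil was 1.57 ± 0.37 (SE) in Tom- and -1.41 ± 0.37 in Tom+ hepatocytes, and averaged over both fractions it was 0.08 ± 0.26. Tom+ against Tom- it was -1.95 ± 0.37 in CCl4, with Tom+ lower in 3 of 3 same-numbered pairs, and 1.03 ± 0.36 in oil, with Tom+ higher in 2 of 3 pairs. The Tom+ level was 0.223 to 0.372 of the Tom- level in the CCl4 pairs and 0.993 to 2.71 of it in the oil pairs. Without the oil libraries that went against their labels the change in Tom+ hepatocytes was -0.95, that in Tom- hepatocytes 1.39, and the oil difference between fractions 0.39.

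Other measures of the libraries were read beside Neat1. The share of counts from the mitochondrial genome was 3.43 to 5.58% in Tom- CCl4 and 2.54 to 3.16% in Tom+ CCl4, against 1.87 to 3.66% in Tom- oil and 3.64 to 4.28% in Tom+ oil. The summed endothelial markers were highest in Tom- CCl4 as given above. With CCl4 in Tom- hepatocytes 8 of 8 were called higher, beside 6.33% of all genes tested. In Tom+ than in Tom- CCl4, 5 of 8 were called lower, beside 1.74% of all genes tested (6 of 8 with the replicate block). In Tom+ hepatocytes their sums were 123 to 206 CPM in oil and 146 to 198 CPM in CCl4. There 0 of 8 were called, beside 2.9% of all genes tested called higher and 2.34% lower. The part of these measures in the Neat1 values was not tested. Relative to its neighbour Malat1 within the same library, Neat1 had 1.17, 1.15 and 1.88 counts per Malat1 count in Tom- CCl4, and 0.434, 0.570 and 0.643 in Tom+ CCl4. The ratio was 0.425 to 0.581 in Tom- oil and 0.480 to 1.41 in Tom+ oil. The Tom- CCl4 ratios were above all Tom- oil ratios, whereas those of Tom+ CCl4 and Tom+ oil overlapped. The highest oil ratio was that of Tom+ oil replicate 2, one of the doubtful oil libraries.

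Counts along Neat1 were not spread alike in the groups. Gm28006, Gm27505 and Gm27533 are short features annotated inside Neat1, 441 to 1192 bases from its 5′ end (chr19:5844286-5845037, minus strand), in the stretch that the short and long forms share. Their counts, which are shares of the same reads, came to 12.7, 13.7 and 14.7% of the Neat1 count in Tom- oil and to 16.3, 15.5 and 14.0% in Tom+ oil. They came to 11.4, 9.90 and 8.10% in Tom- CCl4 and to 12.8, 11.8 and 11.3% in Tom+ CCl4. By label, all CCl4 libraries of each fraction were below all its oil libraries, and Tom- was below Tom+ in 3 of 3 CCl4 pairs. Tom- oil replicate 1, whose reporter was at the Tom+ level, had 12.7%, below the highest Tom+ CCl4 value of 12.8%. These features were chosen after their values were seen, and the percentages are given with no test.

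**Figure D2:**
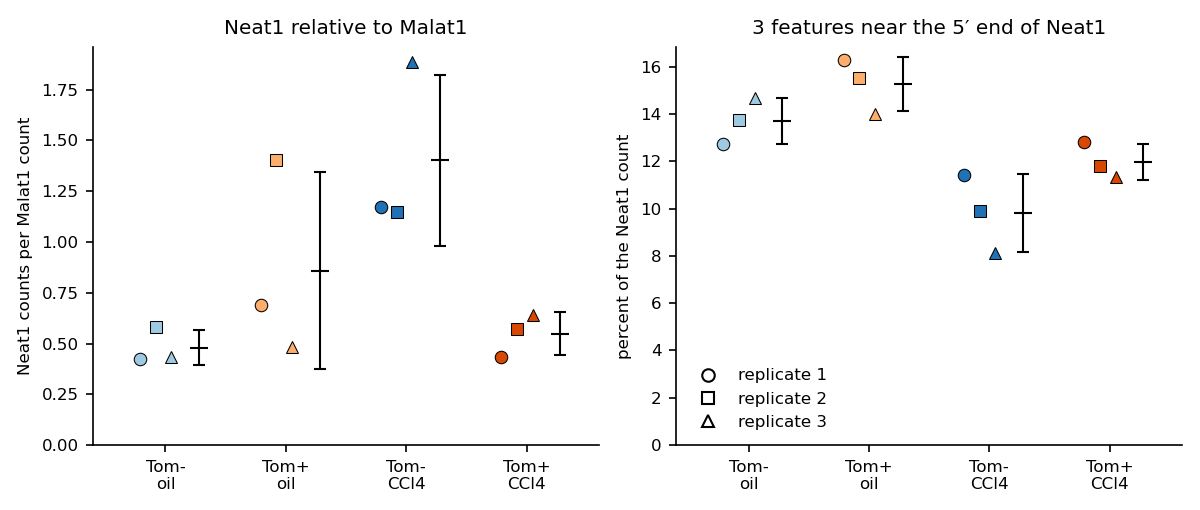
Left, Neat1 counts per Malat1 count in each library (vertical axis, ratio) by group; right, counts of 3 short features near the 5′ end of Neat1 as a percent of the Neat1 count. Symbols mark replicates and the line with its bar the mean ± SD of 3 libraries; the ratio is above 1.1 in every Tom- CCl4 library, and the percentage is lowest there (8.10 to 11.4%).

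Malat1 was at 113, 129 and 165 CPM in Tom- oil, 178, 144 and 148 CPM in Tom+ oil, 112, 172 and 131 CPM in Tom- CCl4 and 113, 77.2 and 87.3 CPM in Tom+ CCl4. The Tom+ CCl4 libraries were all below the Tom+ oil libraries, whereas the Tom- groups overlapped. Malat1 fell in Tom+ hepatocytes under CCl4, with a log2 fold change of -0.76 ± 0.19 (SE) and an adjusted p of 0.0247 (edgeR quasi-likelihood test, Benjamini-Hochberg), just past the fold threshold of 0.75, where 2.34% of the 17121 genes tested were called lower and 2.9% higher. Without the oil libraries that went against their labels the adjusted p was 0.0519. It rose above 0.05 as well without Tom+ oil replicate 1 (0.0974), Tom+ CCl4 replicate 2 (0.09) or Tom+ CCl4 replicate 3 (0.102). In Tom- hepatocytes the change was 0.03 ± 0.19 with an adjusted p of 0.927. The difference between these changes, -0.79 ± 0.26, had an adjusted p of 0.138 (0.0439 to 0.313 over the alternative settings), and the lowest of these values, by DESeq2, was the only one that called it. Tom+ against Tom- Malat1 differed by -0.58 ± 0.19 in CCl4 (adjusted p 0.0867) and by 0.21 ± 0.19 in oil (adjusted p 0.861).

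Gas5 had the smallest ratio of its highest to its lowest level among the 6 RNAs tested. It was at 29.6, 26.4 and 26.7 CPM in Tom- oil, 24.8, 24.3 and 25.5 CPM in Tom+ oil, 27.1, 32.1 and 31.8 CPM in Tom- CCl4 and 24.9, 23.3 and 26.4 CPM in Tom+ CCl4. No contrast passed the thresholds: the log2 fold change of CCl4 against oil was 0.14 ± 0.09 in Tom- hepatocytes (adjusted p 0.321) and within its SE of 0.09 from 0 in Tom+ hepatocytes (adjusted p 0.997). Gas5 was lower in Tom+ than in Tom- libraries in all 6 same-numbered pairs, with log2 differences of -0.29 ± 0.09 in CCl4 (adjusted p 0.0793) and -0.15 ± 0.09 in oil (adjusted p 0.794). When the pairing was put into the fit as a replicate block, the adjusted p in CCl4 was 0.036, at a difference below the fold threshold. Snord78 and Gm22357, small features within the span of Gas5 that share its reads, rose in Tom- hepatocytes under CCl4 by 1.81 ± 0.48 and 1.69 ± 0.49 (adjusted p 0.0211 and 0.0322) from means of 0.236 and 0.146 CPM, and Gm37072, 32577 bases away on the other strand, rose by 1.82 ± 0.48 (adjusted p 0.0215).

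Meg3 was at 0.105, 4.73 and 1.19 CPM in Tom- oil and 0.520, 3.38 and 0.490 CPM in Tom+ oil. In CCl4 it was at 9.33, 39.8 and 24.8 CPM in Tom- and 54.0, 43.9 and 23.9 CPM in Tom+ hepatocytes. The lowest CCl4 library was above the highest oil library, and the values within a group spread widely. Over both fractions CCl4 raised Meg3 by a log2 of 4.18 ± 0.76 (adjusted p 0.00579). In that contrast 6.17% of the genes tested were called higher and 2.26% lower. Same-numbered Tom+ and Tom- libraries may come from 1 mouse. Tests over both fractions, here and below, count them as independent, which they may not be. The rise was 4.80 ± 1.10 in Tom+ hepatocytes (adjusted p 0.0297) and 3.56 ± 1.05 in Tom- hepatocytes, where the adjusted p of 0.0511 missed the threshold (0.0106 to 0.134 over the alternative settings).

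Rian, which carries small nucleolar RNAs in the same domain, followed the same order. It was at 0.105, 2.69 and 0.470 CPM in Tom- oil, 0.0578, 2.31 and 0.441 CPM in Tom+ oil, 6.55, 21.0 and 13.5 CPM in Tom- CCl4 and 45.1, 42.1 and 24.1 CPM in Tom+ CCl4. Every CCl4 library was above every oil library. Rian rose by 4.46 ± 0.77 over both fractions (adjusted p 0.00462) and by 5.34 ± 1.12 in Tom+ hepatocytes (adjusted p 0.0211), and the value in Tom- hepatocytes was 3.58 ± 1.07 (adjusted p 0.0531, and 0.0172 to 0.135 over the alternatives).

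Mirg, the microRNA host at the far end, had 0, 0.155 and 0.123 CPM in Tom- oil and 0, 0.153 and 0 CPM in Tom+ oil. It had 0.581, 1.85 and 0.950 CPM in Tom- CCl4 and 3.02, 1.62 and 0.835 CPM in Tom+ CCl4, again with no overlap between oil and CCl4. Mirg rose by 4.31 ± 0.70 over both fractions (adjusted p 0.00139), by 5.12 ± 1.03 in Tom+ (adjusted p 0.00939) and by 3.49 ± 0.96 in Tom- hepatocytes (adjusted p 0.0285). The last value rests on 14 counts in the 3 Tom- oil libraries, and 6.33% of the genes tested were called higher and 1.59% lower in that contrast.

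The rises of Meg3, Rian and Mirg over both fractions stayed past both thresholds when any single library or both doubtful oil libraries were left out. These tests count libraries that may come from 1 mouse as independent. The calls within 1 fraction were less stable. Meg3 in Tom+ hepatocytes lost its call without Tom+ oil replicate 1 or 3 or without any of the 3 Tom+ CCl4 libraries (adjusted p 0.0631 to 0.11), and Rian without Tom+ oil replicate 1 or 3 or Tom+ CCl4 replicate 2 or 3 (adjusted p 0.0525 to 0.0619). Mirg in Tom- hepatocytes lost it without any Tom- oil library or without Tom- CCl4 replicate 2 or 3 (adjusted p 0.0598 to 0.0978). In oil, replicate 2 had the highest Meg3, Rian and Mirg in both fractions. Without Tom+ oil replicate 2 the change in Tom+ hepatocytes was 6.32 for Meg3 and 7.46 for Rian, and without Tom- oil replicate 2 the change in Tom- hepatocytes was 5.15 and 5.47. Tom+ oil replicate 2 was the only Tom+ oil library with Mirg counts (8). In the Tom+ against Tom- contrasts none of the 3 passed the test, with differences in CCl4 of 0.72 ± 0.90 for Meg3, 1.44 ± 0.90 for Rian and 0.71 ± 0.77 for Mirg (adjusted p 0.689, 0.391 and 0.636). In that contrast 0.222% of the genes tested were called higher and 1.74% lower. For Rian every Tom+ CCl4 library was above every Tom- CCl4 library, which with 3 libraries a side is a description with no test. Within a library, Rian had 0.528 to 0.701 counts per Meg3 count in Tom- CCl4 and 0.836 to 1.01 in Tom+ CCl4, which did not overlap, and Mirg had 0.0352 to 0.0623 counts per Meg3 count in the 6 CCl4 libraries.

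**Figure D3:**
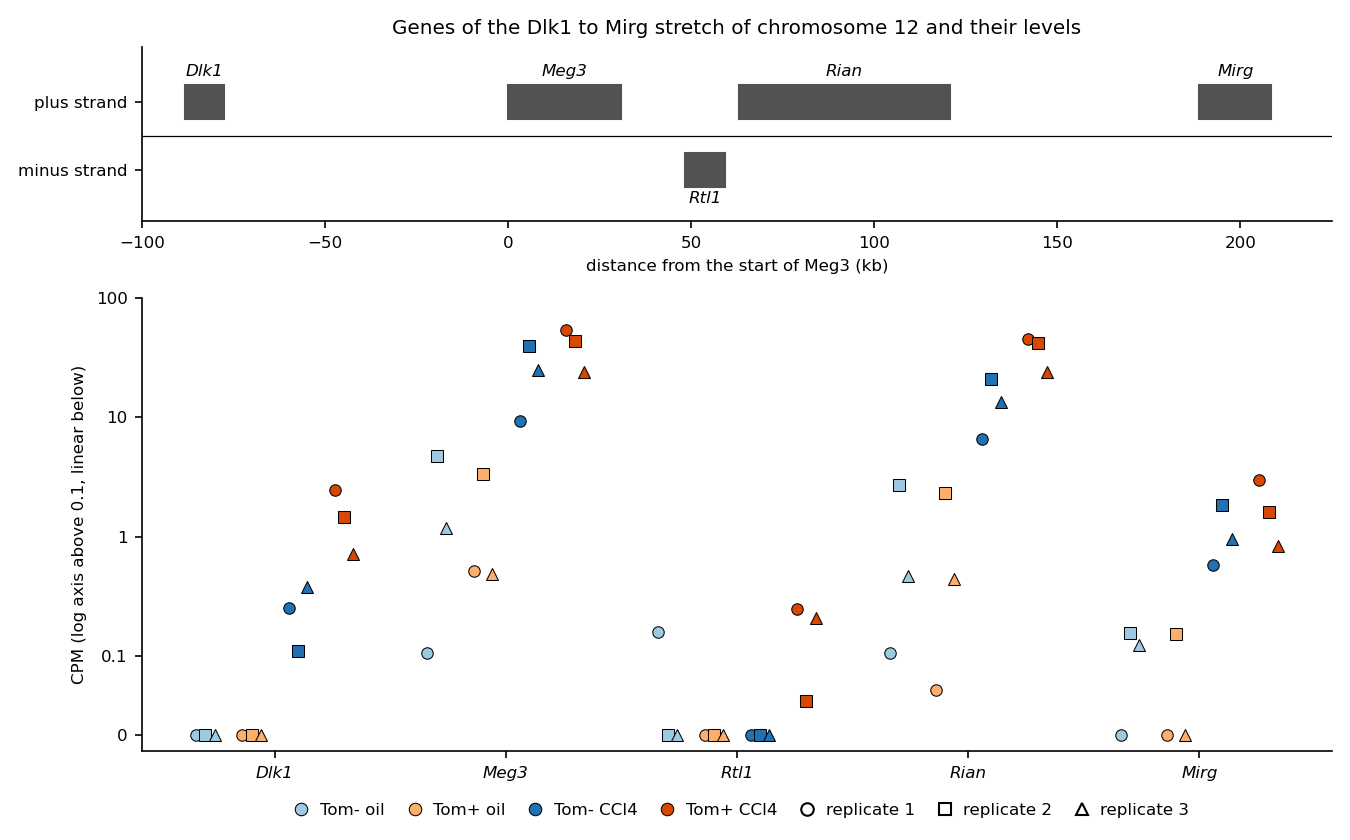
Top, Dlk1, Meg3, Rtl1, Rian and Mirg drawn to scale by distance from the start of Meg3 (kb) on the plus or minus strand; bottom, their level in each of the 12 libraries as CPM, on an axis that is logarithmic above 0.1 and linear below. Colours are groups and symbols replicates; Meg3, Rian and Mirg are higher in every CCl4 library than in any oil library, Dlk1 is at 0 in all oil libraries, and Rtl1 is near 0 throughout.

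Other features of the domain were counted too. Dlk1, the protein-coding gene of a membrane-bound Notch-like ligand that ends 77665 bases before Meg3 and is normally expressed from the other parental chromosome, had 0 counts in all 6 oil libraries. It was at 0.253, 0.111 and 0.380 CPM in Tom- CCl4 and 2.47, 1.46 and 0.710 CPM in Tom+ CCl4. With a floor of 3 counts in each oil library, the rise was at least 3.75-fold in Tom- hepatocytes and at least 26.7-fold in Tom+ hepatocytes (adjusted p 0.00962 and 0.00113), and Dlk1 was higher in Tom+ than in Tom- CCl4 by 2.62 ± 0.62 (adjusted p 0.0411). Rtl1, transcribed in the opposite direction to Meg3 and Rian, had counts in 4 libraries only, up to 0.246 CPM, and was not tested. Within 100 kb of Meg3, 45 other features are annotated, of which 23 had no count in any library and 5 were tested. These are Dlk1, Gm27300, Mir1906-1, Gm26906 and Gm24895, and all 5 were called higher with CCl4 over both fractions. Gm27300, Mir1906-1 and Gm26906 overlap Meg3 and Gm24895 overlaps Rian, so that they share reads with these genes and are no separate evidence. Gm26906 is annotated on the strand opposite to Meg3. The paper describes the libraries as strand-specific. The counting setting for strand is not given in the sources used here, and the counts of Gm26906 (a mean of 2.75 CPM in Tom- CCl4 and 2.95 CPM in Tom+ CCl4) cannot be told apart from those of Meg3.

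Stellate cell markers also rose with CCl4, and their sums by replicate are given beside Meg3. In Tom+ CCl4 their sums were 47.5, 73.6 and 94.5 CPM by replicate, where Meg3 was at 54.0, 43.9 and 23.9 CPM. In Tom- CCl4 they were 64.0, 80.1 and 80.6 CPM, where Meg3 was at 9.33, 39.8 and 24.8 CPM. In oil replicate 2, which had the highest Meg3, the sums were lowest (7.13 CPM in Tom-, beside 7.41 CPM in replicate 1, and 8.63 CPM in Tom+). Single markers differed. Dcn, Reln and Col3a1 were lowest in replicate 2 of both fractions, whereas Lrat was not. By replicate Lrat was at 0.58, 1.09 and 1.12 CPM in Tom- oil and at 0.534, 0.802 and 0.735 CPM in Tom+ oil. Des was lowest in Tom- oil replicate 2 (0.271 CPM) and highest in Tom+ oil replicate 2 (0.534 CPM). Tom+ against Tom- in CCl4, 2 of 8 stellate markers were higher (median log2 fold change -0.33). Of the 8, 7 were called higher with CCl4 over both fractions, led by Reln, Pdgfrb, Lrat, Col3a1 and Dcn, and 7 were called in Tom- and 5 in Tom+ hepatocytes. Over all genes tested 6.17%, 6.33% and 2.9% were called higher in these 3 contrasts. Dcn, a matrix proteoglycan of fibroblasts, had means of 3.27 CPM in oil and 23.6 CPM in CCl4 in Tom- hepatocytes and of 5.46 and 19.8 CPM in Tom+ hepatocytes. Lrat, the retinyl ester synthase of stellate cells, had means of 0.93 and 3.85 CPM in Tom- and of 0.69 and 2.57 CPM in Tom+ hepatocytes. The log2 fold change over both fractions was 2.36 ± 0.37 for Dcn and 1.96 ± 0.25 for Lrat, beside 4.18 ± 0.76 for Meg3. The differences between these changes were not tested. Endothelial markers were called higher for 2 of 8 over both fractions and for 0 of 8 in Tom+ hepatocytes. Macrophage markers were called higher for 0 of 8, although 8 of 8 had a positive change (median 0.93 over both fractions). With the replicate block 8 of 8 macrophage markers were called higher in Tom- hepatocytes and over both fractions, beside 1366 and 1258 of 17121 genes tested. For these contrasts the block joined oil and CCl4 libraries by number, which did not pair. Of the macrophage markers, Adgre1 had means of 2.88 to 7.07 CPM and Clec4f of 8.96 to 23.98 CPM. Epcam, of the bile duct, had a mean of at most 0.0728 CPM. The part of any of these cells in the values of Meg3, Rian and Mirg was not tested.

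H19 was near the limit of detection. It had 0 counts in the 3 Tom- oil libraries, which allows up to 0.0581 to 0.0791 CPM per library (counting error only), and 21 counts (0.401 CPM) in Tom+ oil replicate 2 with 0 in the other 2 Tom+ oil libraries. In CCl4 it had 3, 2 and 6 counts in Tom- and 1, 0 and 0 counts in Tom+ hepatocytes. It did not pass the filter on low counts and was not tested, so that 6 of the 7 RNAs entered the fit. Igf2, the growth factor gene beside it, was also below the filter, with means of 0.042 to 0.244 CPM. Of the 13 other features within 100 kb of H19, 2 were tested and neither was called in any of the 6 contrasts.

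**Figure D4:**
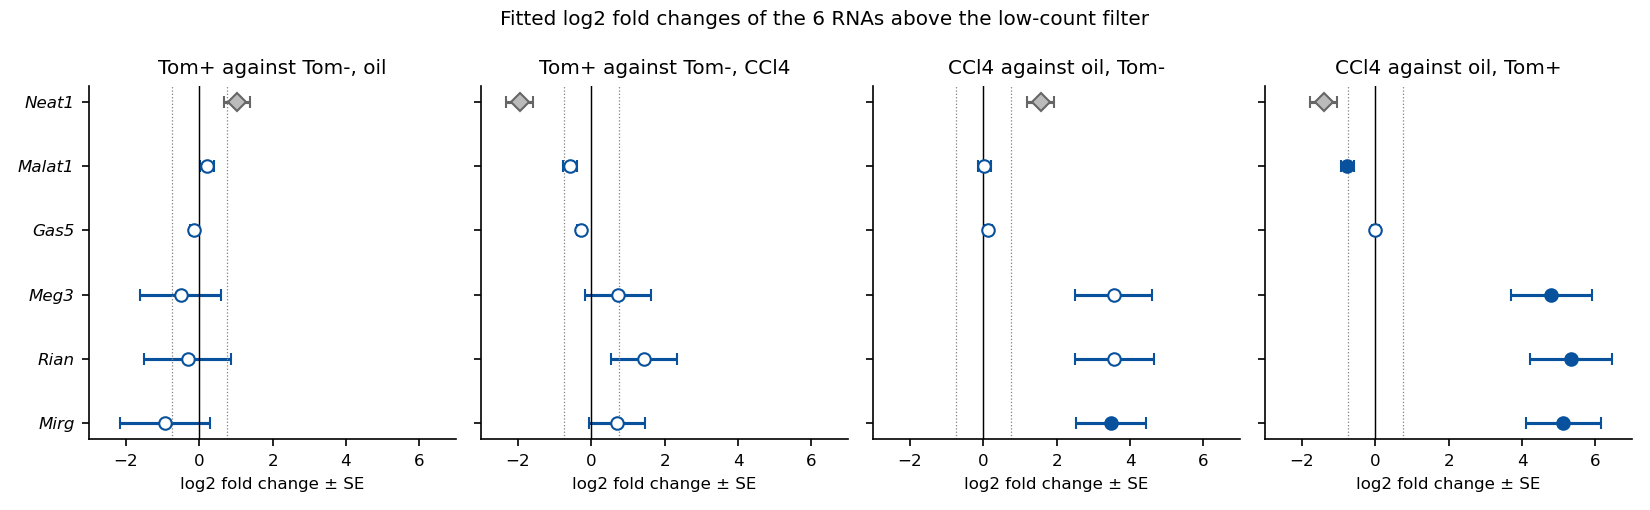
Fitted log2 fold changes (horizontal axes, ± SE) of the 6 RNAs that passed the low-count filter in 4 contrasts; dotted lines mark the fold threshold of 0.75, filled circles passed both thresholds, and Neat1 is a grey diamond because its change chose it and carries no test. Under CCl4 Meg3, Rian and Mirg lie between 3.49 and 5.34, Malat1 falls in Tom+ hepatocytes and Gas5 stays near 0.

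Counted over the RNAs other than Neat1, 3 of 5 rose and 1 of 5 fell with CCl4 in Tom+ hepatocytes. Over all genes tested 2.9% and 2.34% did so, and DESeq2 and limma-voom each called 4 of the RNAs. The 3 that rose were Meg3, Rian and Mirg, of 1 domain, whose levels ran together (r of 0.965 to 0.975). The RNAs were also chosen with earlier results of these data known, so that these shares test no enrichment. In Tom- hepatocytes 1 of 5 rose, beside 6.33% of all genes, where DESeq2 called 3 and limma-voom 0. Over both fractions 3 of 5 rose, beside 6.17% of all genes, and each of the other tools called 3. In Tom+ against Tom- none of the 5 passed in CCl4, with 2 at an unadjusted p under 0.05 and 0 called by DESeq2 or limma-voom. In oil none of the 5 passed, with 0 at an unadjusted p under 0.05 and 0 called by either tool. In oil 0% of all genes tested were called by edgeR in either direction (1198 had an unadjusted p under 0.05), whereas DESeq2 called 17.

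The imprinted genes outside the 7 RNAs were read from a list of 20, of which 15 were tested. With CCl4 over both fractions 9 of the 15 were called higher and 0 lower, beside 6.17% and 2.26% of all genes tested, with a median log2 fold change of 1.36 against 0.003 over all genes tested. In Tom- hepatocytes 8 were higher (median 1.86), beside 6.33% of all genes, and in Tom+ hepatocytes 6 (median 0.68), beside 2.9%, with none lower. In the same contrasts 7, 7 and 5 of the 8 stellate markers were called higher, and their part in these values was not tested. These medians stayed the same with Dlk1 at its lower bound. Cdkn1c, a cyclin-dependent kinase inhibitor expressed from the maternal chromosome, went from 1.27 to 2.85 CPM in the oil libraries to 8.77 to 10.1 CPM in Tom- CCl4 and 16.5 to 19.6 CPM in Tom+ CCl4. It was higher in Tom+ than in Tom- CCl4 by 0.92 ± 0.16 (adjusted p 0.00724), and the interaction with treatment was 1.65 ± 0.23 (adjusted p 0.00738), where 0.216% of all genes were called higher and 0.958% lower. Sgce, a sarcoglycan, and its neighbour Peg10, both expressed from the paternal chromosome, rose over both fractions by 2.01 ± 0.13 and 2.76 ± 0.34 (adjusted p 4.35e-07 and 1.72e-04). Mest rose by 1.26 ± 0.15 and Grb10, an adaptor that binds the insulin receptor, by 1.36 ± 0.17 (adjusted p 8.02e-05 and 1.58e-04). The genes that rose thus included ones of maternal and of paternal expression.

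Genes of the nuclear bodies were read beside Neat1 and Malat1. Of 20 paraspeckle protein genes all were tested, and 1 of 20 was called lower in Tom+ hepatocytes under CCl4 and none in the other 5 contrasts (1 in the interaction with the replicate block), beside 2.34% of all genes called lower in Tom+ hepatocytes. The median log2 fold change of the list was -0.09 to 0.05 over the 6 contrasts. That gene was Pspc1, a core paraspeckle protein, with -0.90 ± 0.26 (adjusted p 0.0458), which without the doubtful oil libraries had an adjusted p of 0.15. Sfpq and Nono, its partners, had changes of 0.04 ± 0.10 and -0.06 ± 0.08 in Tom+ and of 0.06 ± 0.10 and -0.14 ± 0.08 in Tom- hepatocytes, with adjusted p of 0.246 or higher. Of 23 nuclear speckle genes 2 were called higher in Tom- hepatocytes under CCl4, Pnn and Pnisr (0.85 ± 0.11 and 0.96 ± 0.16, adjusted p 3.99e-04 and 0.00201), with a list median of 0.26. Over all genes tested 6.33% were called higher there, close to the share of 2 in 23. Pnisr was also the 1 gene of the list called lower in Tom+ than in Tom- CCl4 (-0.94 ± 0.16, adjusted p 0.00694). The interaction was called negative for 4 of 23, Pnn, Pnisr, Srsf11 and Srsf5, with adjusted p of 0.00963 to 0.0422. Over all genes tested 0.958% were called lower in it. Pnisr was at 44.3 to 65.9 CPM in Tom- CCl4 and 24.7 to 38.6 CPM in the other libraries. Without the doubtful oil libraries only Pnn kept an adjusted p under 0.05 in the interaction. Son, Srrm2 and Srsf1, which organise speckles or splice, did not pass both thresholds in any contrast, the changes under CCl4 in Tom- hepatocytes being 0.10 ± 0.09, 0.45 ± 0.12 and 0.42 ± 0.11 (adjusted p 0.493, 0.0246 and 0.0224).

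Other noncoding hosts of small nucleolar RNAs were read beside Gas5. Of 17 listed genes 14 were in the table and 13 were tested. All 13 had a positive change in Tom- hepatocytes under CCl4 (median 0.47, against 0.005 over all genes tested). All 13 had a lower value in Tom+ than in Tom- CCl4 (median -0.56, against 0.004 over all genes tested). With CCl4, 2 of 13 were called higher in Tom- hepatocytes, 1 in Tom+ hepatocytes and 2 over both fractions. Over all genes tested 6.33%, 2.9% and 6.17% were called higher there. Tom+ against Tom- in CCl4, 1 of 13 was called lower, beside 1.74% of all genes tested. Snhg15 rose in both fractions (1.88 ± 0.33 in Tom- and 1.46 ± 0.33 in Tom+, adjusted p 0.00289 and 0.0146, the latter 0.0611 without the doubtful oil libraries) and Snhg20 in Tom- hepatocytes (1.15 ± 0.25, adjusted p 0.0085). Snhg20 was at 5.84 to 8.04 CPM in Tom- CCl4 and 1.53 to 3.44 CPM in the other libraries, and it was lower in Tom+ than in Tom- CCl4 (-1.47 ± 0.25, adjusted p 0.008). Snhg18 rose over both fractions from means of at most 0.118 CPM (2.08 ± 0.62, adjusted p 0.029). Snhg1 and Zfas1 were not called, with 0.47 ± 0.14 and 0.43 ± 0.21 in Tom- hepatocytes (adjusted p 0.0389 and 0.184).

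Of 19 other long noncoding RNAs 17 were in the table and 13 were tested. In Tom+ against Tom- CCl4 hepatocytes 4 of 13 were called lower and 0 higher, beside 1.74% and 0.222% of all genes tested, these being Firre, Kcnq1ot1, Jpx and Dancr. Firre, a nuclear RNA of the X chromosome, was at 35.3 to 55.4 CPM in Tom- CCl4, 16.1 to 19.998 CPM in Tom+ CCl4 and 21.0 to 36.6 CPM in oil, a difference between the fractions of -1.19 ± 0.20 in CCl4 (adjusted p 0.00779). Its interaction of -1.41 ± 0.28 (adjusted p 0.0336) had an adjusted p of 0.0854 without the doubtful oil libraries. Mir22hg also had a negative interaction (-0.77 ± 0.16, adjusted p 0.0341, and 0.11 without those libraries). Dancr rose in Tom- hepatocytes by 1.70 ± 0.34 (adjusted p 0.00601) and Jpx, a gene of the X-inactivation centre, fell in Tom+ hepatocytes by 1.22 on the log2 scale (adjusted p 0.0258, and 0.0863 without the doubtful oil libraries). Airn, which silences Igf2r on the paternal chromosome, had 6 counts over the 6 oil libraries and 0.0829 to 0.788 CPM in the CCl4 libraries (adjusted p 0.00256 over both fractions). Tug1 was at means of 33.02 to 36.53 CPM and was not called in any contrast.

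**Figure D5:**
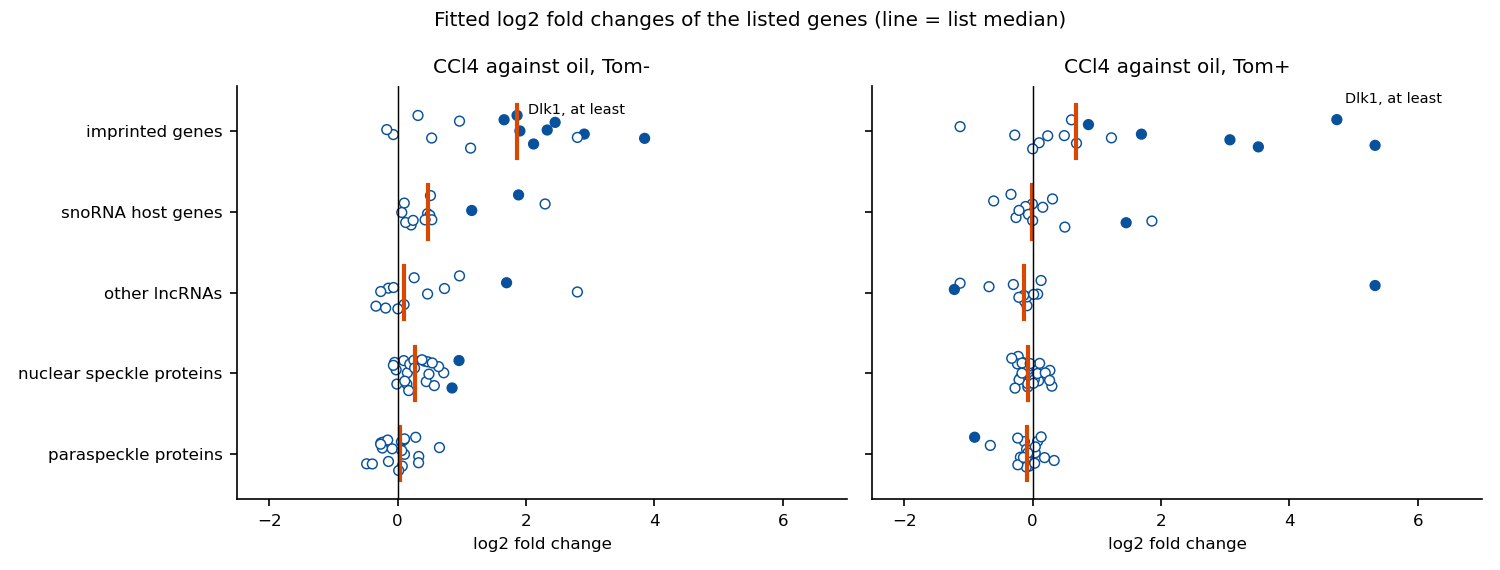
Fitted log2 fold changes (horizontal axes) of CCl4 against oil in Tom- (left) and Tom+ (right) hepatocytes for the tested genes of 5 lists, 1 circle a gene; filled circles passed both thresholds, orange lines are list medians, vertical scatter has no meaning, and Dlk1 is drawn at its lower bound. The median of the imprinted genes is 1.86 in Tom- and 0.68 in Tom+ hepatocytes, and that of the paraspeckle proteins is 0.04 and -0.09.

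The genes that hold H19 and Afp silent in adult liver were read beside H19. Zhx2 and Zbtb20, repressors of this programme, were at means of 17.1 to 19.8 and 87.5 to 121 CPM and were not called in any contrast. Afp, the fetal serum protein they repress, rose in Tom+ hepatocytes under CCl4 by 0.94 ± 0.20 (adjusted p 0.011), from 2.47 to 3.61 CPM in oil to 4.56 to 6.85 CPM, and had 0.47 ± 0.20 in Tom- hepatocytes (adjusted p 0.134). Lpl, lipoprotein lipase, rose over both fractions by 4.07 ± 0.48 (adjusted p 6.84e-04). Gpc3 had means of 0.03 to 0.281 CPM and was not called. Of the 6 genes of this list 1 was called higher in Tom- and 2 in Tom+ hepatocytes, and 0 lower. Over all genes tested 6.33% and 2.9% were called higher there, and 1.59% and 2.34% lower. The list holds both repressors and genes that they repress.

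The genes whose log2 CPM followed Neat1 most closely over the 12 libraries, among 13061 with a mean of at least 1 CPM, were Glt8d1 (Pearson r = 0.964), the 3 features inside Neat1 named above (0.931 to 0.953) and Tmem185b (0.916). For Malat1 these were ENSMUSG00000092267, Gm37376 and Gm27694 of the same locus (0.939 to 0.972), Med12 (0.916) and 9530082P21Rik (0.916). For Meg3 they were Gm26906 (0.984), Slc1a5, a glutamine transporter (0.981), Rian (0.975), Rec8, a meiotic cohesin subunit (0.96), and Ccn5, a secreted matricellular protein (0.957). Slc1a5 went from means of 3.41 and 3.95 CPM in Tom- and Tom+ oil to 17.4 and 22.05 CPM in CCl4. Over these libraries, which share the groups and the scaling, Meg3, Rian and Mirg had r of 0.965 to 0.975 with each other, Neat1 and Malat1 0.574, and Neat1 and Meg3 0.136. These values describe the 12 libraries.

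Around Neat1, 20 of 21 other features within 100 kb were tested, and around Malat1 18 of 20, in windows that largely coincide. Besides the features inside Neat1, those called in any contrast were Ehbp1l1, Ltbp3 and Gm42067, all higher with CCl4 over both fractions (0.82 ± 0.18, 0.86 ± 0.25 and 1.07 ± 0.18, adjusted p 0.00558, 0.0264 and 0.00123), and Gm27694 and ENSMUSG00000092267, which overlap Malat1 and fell in Tom+ hepatocytes by 1.05 and 0.92 on the log2 scale (adjusted p 0.0186 and 0.0375). ENSMUSG00000092267 is annotated on the strand opposite to Malat1, and both share its reads or cannot be told apart from it. No neighbour outside Neat1 had opposite called changes in the Tom- and Tom+ fractions.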

How the data were processed

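Each of the 12 libraries was assigned to its group and replicate number from the labels. According to the submitters' processing notes, the authors used fastp (v0.23.2) for trimming and HISAT2 (v2.1.0) with the mm10 genome. The paper describes strand-specific libraries and names TPMcalculator for its TPM values. Which program and settings gave the deposited counts is not stated in the sources used here. The values deposited by the authors are unnormalized expected counts of each feature. Part of them hold fractions, contrary to the whole counts the design had assumed, and all were rounded for the tests. Identifiers were matched to symbols for 54723 of 54839 features.

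The tests used edgeR (v4.0.16; R v4.3.3), with TMM scaling, the filterByExpr filter, which kept 17121 genes, and 1 robust quasi-likelihood fit over the 4 groups. A gene was called at a Benjamini-Hochberg adjusted p under 0.05 over all genes tested and a log2 fold change beyond 0.75. The study's notes name DESeq2 (v1.42.1). DESeq2 (v1.42.0) and limma-voom (limma v3.58.1) were alternatives here. The tests were tested on simulated data. Figures were drawn in Python (v3.11.15) with matplotlib (v3.10.9).

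Neat1 was left out of the counts of RNAs called, which the design had set over all 7. The 7 RNAs and the 12 gene lists were chosen with earlier results of these data known. Named are the 7 RNAs, up to 5 called genes of each list with the lowest adjusted p and its key genes, the 5 genes most like Neat1, Malat1 and Meg3, and called features within 100 kb, with Igf2 and Rtl1 added as the known partners of H19 and Meg3. Of 144 list entries 139 were in the table.

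Tom+ and Tom- libraries with the same number deviated together from their group means (correlations 0.365 to 0.694 over 9579 genes in the 6 pairs), so that the numbers of the labels pair them within a treatment. The sources used here do not say whether a pair comes from 1 mouse. Tests over both fractions count the libraries of a pair as independent. P-values and the SE of fold changes measure the spread between these libraries, and each SD is the spread of the 3 libraries of a group. Floors and the upper limits given for 0 counts cover counting error only.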

Additional observations from a re-analysis of the deposited data

Results flagged for a closer look

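Neat1 moved in opposite directions under CCl4 in the fractions: every Tom- CCl4 library (132 to 247 CPM) was above every Tom- oil library (47.9 to 74.8 CPM), and every Tom+ CCl4 library (44.0 to 56.1 CPM) was below every Tom+ oil library (71.0 to 203 CPM). The fitted difference between the changes was -2.98 on the log2 scale, and -2.35 without the 2 oil libraries whose reporter went against their labels. The opposite changes by label chose Neat1, and the difference was not tested. Placed by reporter level instead, Tom+ oil replicate 2 (203 CPM) lies within the Tom- CCl4 range. Tom- oil replicate 1 (47.9 CPM) then lies within the Tom+ CCl4 range, so that neither separation holds.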

How the results depend on the processing

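Of the 5 RNAs tested other than Neat1, 0 were called for Tom+ against Tom- in CCl4 and 0 in oil, 1 for CCl4 against oil in Tom-, 4 in Tom+, 3 over both fractions and 0 for the interaction. Leaving out 1 library at a time gave 0, 0, 0 to 3, 1 to 4, 3 and 0. In Tom- hepatocytes no filter on low counts, at least 10 counts in every library and limma-voom each gave 0, and DESeq2 and the replicate block each gave 3. In Tom+ hepatocytes no filter gave 2 and at least 10 counts gave 1. With at least 10 counts in every library, which removes Meg3, Rian and Mirg from the test, 0 were called over both fractions. For the interaction DESeq2 gave 1.

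The numbers pair Tom+ and Tom- libraries within a treatment but not across treatments, where 4 of 6 correlations of same-numbered libraries were under 0.11. With the replicate block the counts were 0, 0, 3, 4, 3 and 0 in the order above. For CCl4 against oil the block joined oil and CCl4 libraries by number, so that the counts of 3, 4 and 3 are no paired check. Between Tom+ and Tom- libraries, where the numbers pair, the block changed no call of these RNAs.

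By CPM in place of TPM, 5 of the 7 RNAs kept their place in the order of mean levels, Neat1 and Gas5 changing places. Values that changed sign were not called: Malat1 under CCl4 in Tom- ranged from -0.16 to 0.20 with 1 library left out and was -0.0811 without the 2 oil libraries. With 1 library left out, Tom+ against Tom- in oil ranged from -2.03 to 1.08 for Meg3 and from -2.44 to 1.58 for Rian, and their interactions from -0.36 to 2.75 and from -0.13 to 3.88. Gas5 in Tom+ hepatocytes ranged from -0.0455 to 0.0437 and was 0.0017, 2.8e-04, 8.3e-04 and 0.0019 with RLE factors, no filter, at least 10 counts and DESeq2. The cause of these changes was not tested, beyond the fewer libraries or genes that each alternative itself sets. Depth limited H19, and Mirg in oil.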
